A study of Mus musculus with 6 samples.

Results

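The 10 late neutrophil granule genes Ltf, Camp, Ngp, Lcn2, Chil3, S100a8, S100a9, Mmp8, Mmp9 and Retnlg were taken by symbol from a table of 24421 genes. All 10 were found, and all 10 passed the filter on low counts. They were chosen from these same data: they were the genes that lay lower with ruxolitinib (RUX, a drug that blocks the kinases JAK1 and JAK2) in a fit that left out that filter. Their difference between the groups is therefore given as a description with no test, and the report turns on how they varied over the pools. RNA was sequenced from Lin-CD117+ bone marrow cells of normal CByB6F1 mice, a fraction without lineage antigens that carries the KIT receptor and holds stem and progenitor cells. There were 3 RUX-treated pools (4, 5 and 6) and 3 untreated pools (1, 2 and 3). Each pool combined sorted cells of 2 to 3 female mice aged 2 to 5 months. The sources used here do not give the antibodies of the lineage panel, the dose of RUX or how long it was given.

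Neutrophils make their granules in sequence. The primary granules, with myeloperoxidase and elastase, are filled in promyelocytes, which still resemble the KIT-positive progenitors. The secondary granules with lactoferrin and the tertiary granules with gelatinase follow in myelocytes and later cells, which have mostly lost KIT and gained the surface antigens that lineage depletion removes. Transcripts of late granule proteins are thus known from cells at or beyond the edge of this sorting gate. In RNA of whole pools, fewer cells of a type and less RNA per cell cannot be told apart.

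The 10 genes moved together over the pools, and the widest differences lay among the untreated pools. Their summed read pairs made up 0.147% of the library in RUX pool 4 (exact binomial 95% interval 0.146 to 0.148%), 0.0968% in RUX pool 5 (0.0959 to 0.0977%) and 0.0383% in RUX pool 6 (0.0378 to 0.0389%). In untreated pools 1, 2 and 3 they made up 0.0173% (0.0168 to 0.0178%), 0.232% (0.231 to 0.234%) and 0.245% (0.244 to 0.247%). The intervals cover counting error only. The lowest and the highest pool were thus both untreated, and the 3 RUX pools lay between them. Libraries held 46.0, 47.7 and 48.7 M counted read pairs in RUX pools 4, 5 and 6 and 27.4, 38.7 and 37.4 M in untreated pools 1, 2 and 3, so the pool with the lowest share was also the shallowest. The 10 genes had 20 to 1527 read pairs each there and 4741 in all. The part of depth in the result was not tested.

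Values per gene are CPM, counts scaled to a common library size, with library sizes adjusted by the trimmed mean of M-values (TMM). Fold changes are log2, RUX minus untreated, from edgeR with their standard error (SE).

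Among the antimicrobial proteins of the secondary granule, Ltf encodes lactoferrin, which binds iron. It measured 72.5, 68.2 and 28.9 CPM in RUX pools 4, 5 and 6 and 8.93, 152 and 147 CPM in untreated pools 1, 2 and 3 (−0.87 ± 0.64, log2 with SE). Untreated pool 1 lay below all RUX pools and the other 2 untreated pools above them, so the groups overlapped. Camp encodes the precursor of the cathelicidin peptide of the mouse. It measured 130, 77.3 and 24.2 CPM in RUX pools 4, 5 and 6 and 12.5, 202 and 209 CPM in untreated pools 1, 2 and 3 (−0.87 ± 0.70, log2 with SE). Ngp, which encodes a neutrophil granule protein related to cystatins and cathelicidins, measured 324, 237 and 82.5 CPM in the RUX pools and 33.5, 568 and 500 CPM in the untreated pools, in the same order (−0.78 ± 0.67, log2 with SE). Lcn2 encodes lipocalin 2, which captures bacterial siderophores, and measured 45.2, 27.7 and 12.3 CPM in the RUX pools and 5.18, 73.3 and 82.9 CPM in the untreated pools (−0.92 ± 0.65, log2 with SE). All 4 had their lowest value in untreated pool 1 and the next in RUX pool 6.

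**Figure D1:**
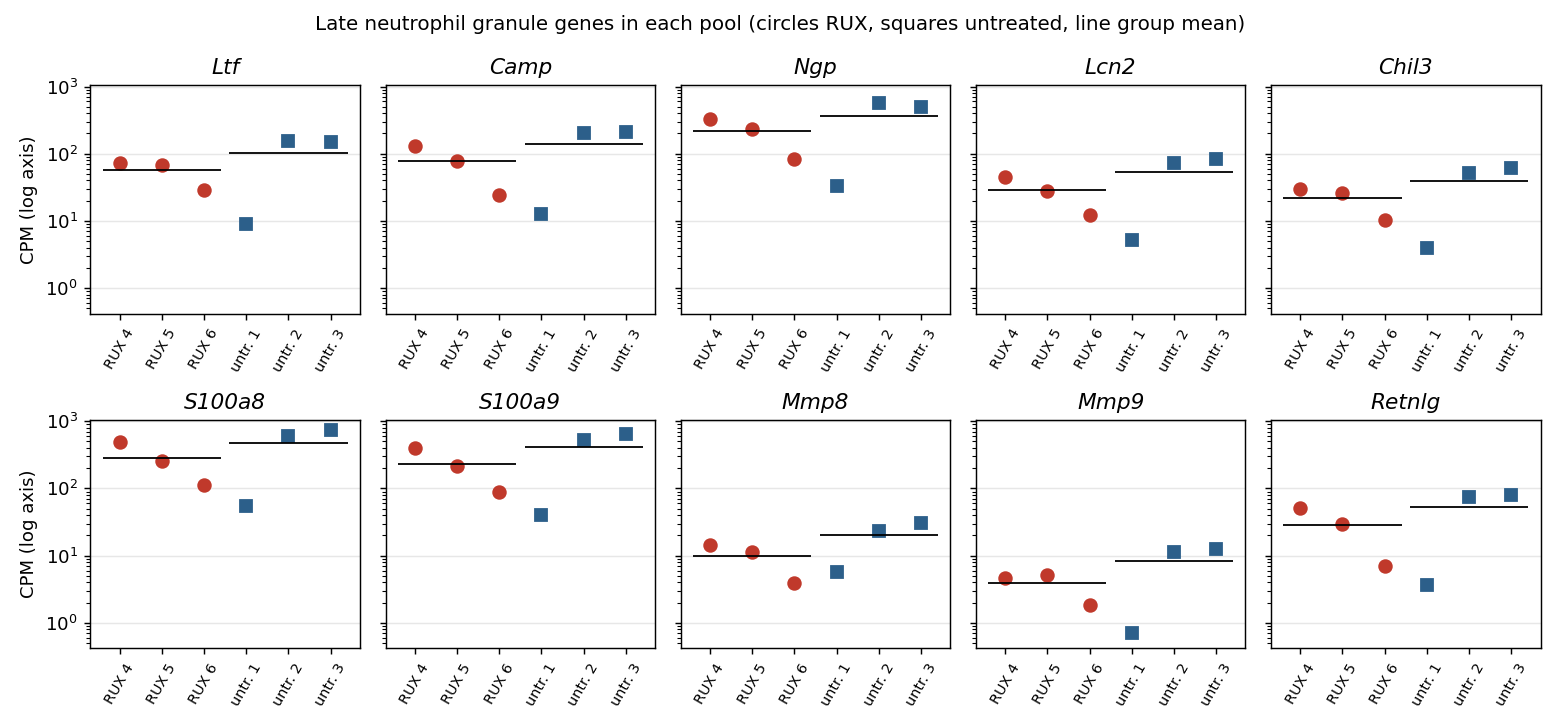
CPM on a log axis of each of the 10 late granule genes in the 3 RUX pools (circles) and the 3 untreated pools (squares), with the group mean as a line. Untreated pools 2 and 3 are the highest for every gene, and untreated pool 1 is the lowest for 9 of the 10; Mmp8 was lowest in RUX pool 6.

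S100a8 and S100a9 encode the 2 chains of calprotectin, a calcium- and zinc-binding protein that fills the neutrophil cytosol, and were the most abundant of the 10 per kilobase of exon, averaged over the 6 pools. S100a8 measured 497, 254 and 111 CPM in RUX pools 4, 5 and 6 and 54.5, 609 and 739 CPM in untreated pools 1, 2 and 3 (−0.70 ± 0.65, log2 with SE). S100a9 measured 401, 212 and 88.7 CPM in the RUX pools and 40.6, 535 and 656 CPM in the untreated pools (−0.81 ± 0.68, log2 with SE). Their ratio barely moved, with 1.24, 1.20 and 1.25 S100a8 read pairs per S100a9 read pair in RUX pools 4, 5 and 6 and 1.34, 1.14 and 1.13 in untreated pools 1, 2 and 3. Per kilobase of exon S100a8 stood at 963 and S100a9 at 615 CPM, followed by Ngp (250.5) and Camp (182).

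Per kilobase of exon and averaged over the 6 pools, the collagen- and gelatin-cleaving enzymes were the least abundant of the 10. Mmp9, the gelatinase of tertiary granules, measured 4.68, 5.21 and 1.86 CPM in RUX pools 4, 5 and 6 and 0.714, 11.4 and 12.5 CPM in untreated pools 1, 2 and 3 (−1.07 ± 0.64, log2 with SE). Mmp8, neutrophil collagenase, measured 14.3, 11.5 and 3.91 CPM in the RUX pools and 5.75, 23.6 and 30.5 CPM in the untreated pools (−1.02 ± 0.49, log2 with SE). It was the 1 gene of the 10 with its lowest value in RUX pool 6 and not in untreated pool 1. Per kilobase of exon, averaged over the 6 pools, Mmp9 stood at 1.91 CPM.

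Chil3 encodes the chitinase-like protein Ym1, and Retnlg encodes the resistin-like protein gamma of mouse neutrophils. Chil3 measured 30.2, 25.5 and 10.2 CPM in RUX pools 4, 5 and 6 and 3.89, 51.1 and 61.2 CPM in untreated pools 1, 2 and 3 (−0.82 ± 0.63, log2 with SE). Retnlg measured 50.4, 29.1 and 7.06 CPM in the RUX pools and 3.64, 74.9 and 78.5 CPM in the untreated pools (−0.86 ± 0.75, log2 with SE). Retnlg had the widest range of the 10, 21.6-fold from its highest to its lowest pool, and Mmp8 the narrowest, 7.81-fold. The near copy Chil4 had 0 or 1 read pair per pool. Retnlg overlaps the locus BC002163, which had 464 to 591 read pairs in the RUX pools and 243 to 435 in the untreated pools, and reads of the 2 loci could not be told apart by strand.

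The order of the pools was almost the same for every gene. Untreated pool 3 was the highest for 8 genes and untreated pool 2 for the other 2, Ltf and Ngp. RUX pool 4 came next for 9 genes, followed by RUX pool 5, and Mmp9 had these 2 in the opposite order. RUX pool 6 followed and untreated pool 1 came last for 9 genes, and Mmp8 had these 2 in the opposite order. Over the 45 pairs of genes, Pearson's r of log2(CPM + 1) across the 6 pools was 0.87 to 1.00 (median 0.986). For deviations from the group means it was 0.94 to 1.00 (median 0.988). Without untreated pool 1 and RUX pool 6, the 2 pools farthest from the median, it was 0.75 to 1.00 (median 0.944) over 4 pools. These are descriptions of 6 pools, and the genes come from the same libraries.

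The make-up of the late granule RNA was much steadier than its amount. While the share of the library differed by over an order of magnitude between pools, S100a8 made up 31.7, 26.8 and 29.9% of the summed counts of the 10 genes in RUX pools 4, 5 and 6 and 32.2, 26.5 and 29.4% in untreated pools 1, 2 and 3. Lcn2 held 2.88 to 3.32% in the RUX pools and 3.06 to 3.29% in the untreated pools. Ltf held 4.62, 7.20 and 7.79% in RUX pools 4, 5 and 6 and 5.27, 6.63 and 5.85% in untreated pools 1, 2 and 3. From the lowest to the highest pool, the share of Mmp9 differed 1.843-fold, that of Retnlg 1.708-fold and that of Ltf 1.685-fold. The widest departure was that of Mmp8, 3.722-fold. It held 0.912, 1.21 and 1.06% in RUX pools 4, 5 and 6 and 3.40, 1.02 and 1.21% in untreated pools 1, 2 and 3. In untreated pool 1, 8.05 read pairs of Mmp8 were counted per read pair of Mmp9, against 2.10 to 3.06 in the RUX pools and 2.07 and 2.45 in untreated pools 2 and 3. That pool had 161 read pairs of Mmp8 and 20 of Mmp9.

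**Figure D2:**
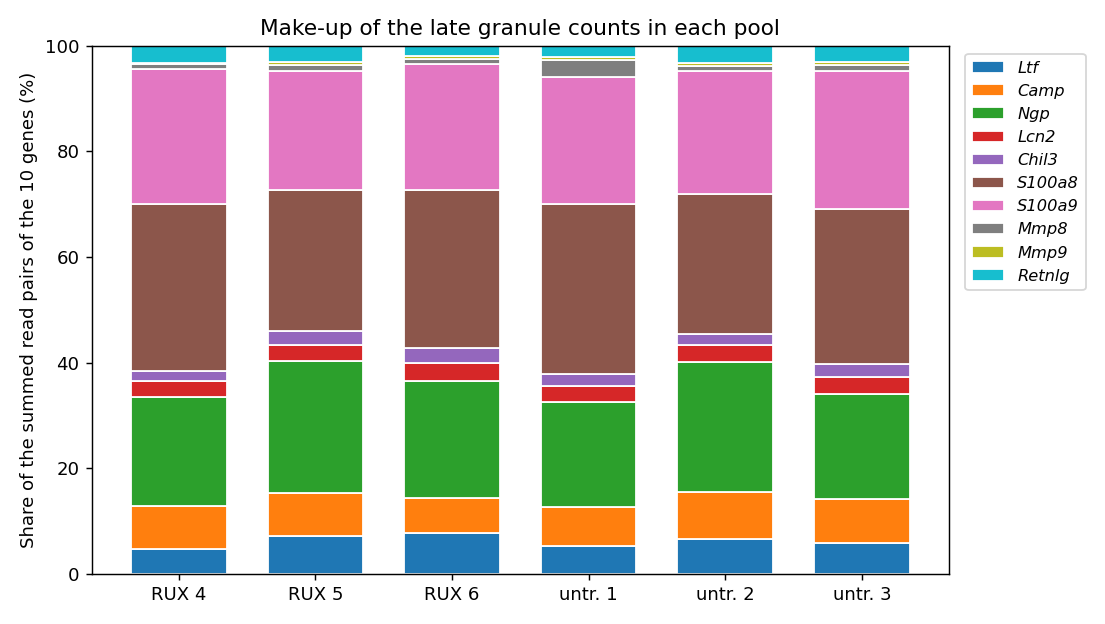
Share in percent of each gene in the summed read pairs of the 10 late granule genes, for the 3 RUX pools and then the 3 untreated pools. S100a8, S100a9 and Ngp make up most of every bar, and Mmp8 takes 3.40% in untreated pool 1 against 0.912 to 1.21% in the other 5 pools.

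Several of the genes lie near each other. In mm10, Camp spans 109847377 to 109849456, Ngp 110419808 to 110423012 and Ltf 111019292 to 111042766 on chromosome 9, so Camp and Ltf lie 1.17 Mb apart, with 0.570 Mb between Camp and Ngp and 0.596 Mb between Ngp and Ltf. S100a8 (90669071 to 90670034) and S100a9 (90692630 to 90695721) lie 22.6 kb apart on opposite strands of chromosome 3. Lcn2 (32384637 to 32387739) and Mmp9 (164948219 to 164955849) are on chromosome 2, Chil3 (106147554 to 106167564) on chromosome 3, Mmp8 (7558429 to 7568486) on chromosome 9 and Retnlg (48872608 to 48874498) on chromosome 16. The neighbours S100a8 and S100a9 had an r of 0.9996 over the 6 pools, Camp and Ngp 0.994, Ngp and Ltf 0.992, and Camp and Ltf 0.977. Retnlg and Camp, on different chromosomes and named after their values were seen, had an r of 0.999. Chil3 and Mmp8, also on different chromosomes, had 0.906, and Ltf and Mmp8, both on chromosome 9, had 0.872. The part of location in these values was not tested.

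Promoters are shown as sequence only, and their part in the joint movement of these genes was not tested. RefSeq windows on GRCm38.p6 from 250 bases before to 50 bases after the annotated start were at hand for 9 of the 10 genes, and their starts lay 0 bases from those of the counted annotation. These letter patterns were searched on both strands: TTNNGCAA for C/EBP factors, GAGGAA for PU.1 and related factors, TTCNNNGAA for STAT factors and TATAAA for the TATA box. The windows of 5 genes follow, each 5′ to 3′ on the strand of its gene, with matches in capitals on either strand. Ltf, Ngp and Lcn2 are the genes of antimicrobial secondary granule proteins with a C/EBP-type match. S100a8 is the most abundant of the 10 per kilobase of exon. Mmp8, which also has such a match, is the gene whose values departed most from the others.
Ltf (chr9:111019042-111019341, plus strand): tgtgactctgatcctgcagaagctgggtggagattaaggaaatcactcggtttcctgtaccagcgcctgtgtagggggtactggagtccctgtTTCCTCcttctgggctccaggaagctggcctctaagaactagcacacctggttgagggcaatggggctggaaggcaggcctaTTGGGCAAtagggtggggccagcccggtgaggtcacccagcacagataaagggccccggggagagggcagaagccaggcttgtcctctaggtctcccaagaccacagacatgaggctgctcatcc
Ngp (chr9:110419558-110419857, plus strand): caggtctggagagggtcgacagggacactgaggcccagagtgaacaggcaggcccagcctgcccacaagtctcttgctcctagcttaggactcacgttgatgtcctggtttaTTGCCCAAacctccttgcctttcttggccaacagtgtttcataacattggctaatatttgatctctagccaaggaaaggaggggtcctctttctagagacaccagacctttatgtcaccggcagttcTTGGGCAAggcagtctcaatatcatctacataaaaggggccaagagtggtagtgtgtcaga
Lcn2 (chr2:32387690-32387989, minus strand): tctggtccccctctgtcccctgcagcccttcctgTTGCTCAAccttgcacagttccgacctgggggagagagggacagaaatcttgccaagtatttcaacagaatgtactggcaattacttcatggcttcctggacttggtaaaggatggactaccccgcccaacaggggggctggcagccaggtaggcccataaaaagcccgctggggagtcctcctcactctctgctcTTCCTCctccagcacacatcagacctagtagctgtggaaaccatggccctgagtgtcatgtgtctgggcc
S100a8 (chr3:90668821-90669120, plus strand): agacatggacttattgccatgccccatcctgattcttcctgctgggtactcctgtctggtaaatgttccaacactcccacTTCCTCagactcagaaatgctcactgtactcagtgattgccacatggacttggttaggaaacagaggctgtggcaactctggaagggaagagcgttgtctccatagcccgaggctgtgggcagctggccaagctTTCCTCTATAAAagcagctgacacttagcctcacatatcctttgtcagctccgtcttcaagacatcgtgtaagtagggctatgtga
Mmp8 (chr9:7558179-7558478, plus strand): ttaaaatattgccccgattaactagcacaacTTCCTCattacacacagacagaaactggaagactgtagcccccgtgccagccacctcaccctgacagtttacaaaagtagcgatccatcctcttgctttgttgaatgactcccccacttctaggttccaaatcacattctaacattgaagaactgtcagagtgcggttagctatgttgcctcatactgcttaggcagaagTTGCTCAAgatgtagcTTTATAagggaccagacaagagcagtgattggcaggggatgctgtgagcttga

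The C/EBP-type pattern was present in 6 of the 9 windows (Ltf, Ngp, Lcn2, S100a9, Mmp8 and Retnlg) and in 10.8% of all 32851 windows of the same length. It lay 75 bases before the start in Ltf and 19 bases before it in Mmp8, and Ngp had a pair of matches, at 138 and 11 bases before the start. The PU.1-type pattern was in 4 of the 9 (Ltf, Lcn2, S100a8 and Mmp8) and in 28.3% of all windows. S100a8 held it at 170 and 36 bases before the start; the nearer of the 2 adjoins its TATAAA at 30 bases before the start, and the capitals run together there. TATAAA was in 4 of the 9 (S100a8, S100a9, Chil3 and, on the other strand, Mmp8) and in 13.6% of all. Only the match of S100a8 lay well before the start; that of S100a9 began 0 bases from it and those of Chil3 and Mmp8 3 bases before it. The STAT-type pattern was in 1 of the 9, Chil3, and in 8.30% of all. A match is a string of letters and not a bound site.

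The difference between the groups was small beside the spread between pools of a group. All 10 fold changes were negative, from −1.07 for Mmp9 to −0.70 for S100a8 with a median of −0.87, where 50.8% of the 13411 tested genes were negative and their median was −0.0036. The values of RUX and untreated pools overlapped for all 10 genes, while 6.24% of tested genes had no overlap. In edgeR's quasi-likelihood test, 0 of the 10 had a Benjamini-Hochberg adjusted p under 0.05, as had 0 of 13411 genes (0%); 254 genes (1.89%) had an unadjusted p under 0.05, and DESeq2 and limma-voom called 0 genes. Because the 10 genes were chosen on this contrast, nothing is read from these counts. Averaged on the linear scale, S100a8 stood at 287 ± 195 CPM in RUX pools and 468 ± 364 CPM in untreated pools, and Retnlg at 28.9 ± 21.7 CPM in RUX pools and 52.4 ± 42.2 CPM in untreated pools (SD, n = 3 each).

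The size of the difference depended on single pools. Without untreated pool 1 the median log2 fold change of the 10 genes was −1.41, and without RUX pool 4 it was −1.36. Without untreated pool 2, untreated pool 3 or RUX pool 6 it was −0.54, −0.48 and −0.47. With RUX pool 5 left out it was −0.89. The median was −0.37 in limma-voom, which averages logarithms. Mmp8 moved least between these 2 tools, at −1.02 in edgeR and −0.98 in limma-voom, and Ngp was at −0.78 and −0.20.

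**Figure D3:**
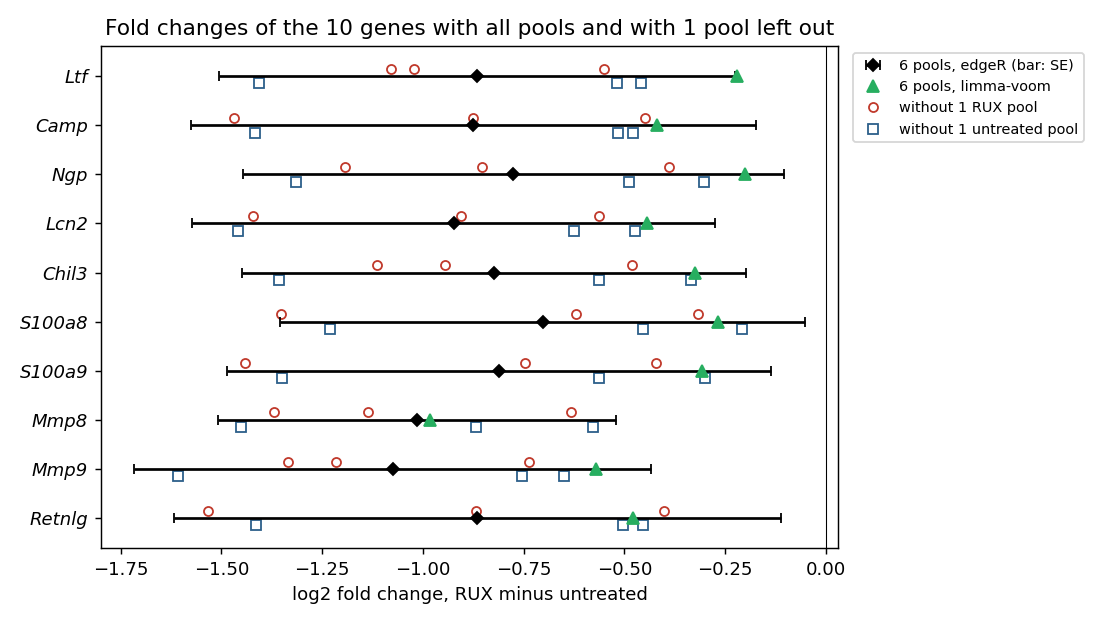
Log2 fold change, RUX minus untreated, of each of the 10 genes: black diamonds with the SE from edgeR on 6 pools, green triangles from limma-voom, and open symbols from edgeR with 1 RUX pool (circles) or 1 untreated pool (squares) left out. All values are below 0, and those of 1 gene span about 1 unit.

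Within a group, these genes varied more than nearly all others on the scale of log2(CPM + 1). The fit that chose them did not weigh each gene's own spread, so a wide spread did not count against a gene there. Their rank by spread is thus a description and not independent of the choice. The SD of log2(CPM + 1) between pools of a group was 1.05 for Mmp8, 1.27 for Mmp9 and 1.55 to 1.92 for the other 8, against a median of 0.200 over the 13411 tested genes. The 1 CPM added before the logarithm damps genes of low counts, so Olfm4, with a 78.4-fold range over the pools, had a smaller SD than Mmp8. On this scale, 14 genes exceeded the value of Mmp8. Of these, 9 were late granule genes and the other 5, named after their values were seen, were Prg2 (1.30), Wfdc21 (1.29), Cd177 (1.23), Chil1 (1.16) and Prss34 (1.06). Prg2 encodes eosinophil major basic protein and Prss34 a basophil protease, whereas Cd177 and Wfdc21 are neutrophil genes.

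**Figure D4:**
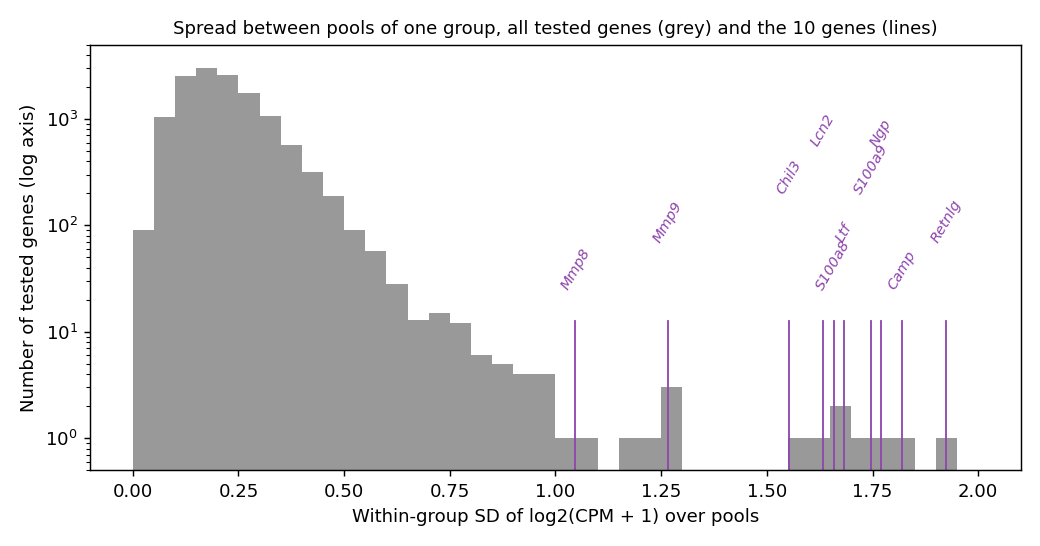
Histogram on a log axis of the within-group SD of log2(CPM + 1) for 13411 tested genes (grey), with purple lines at the 10 late granule genes. The 10 genes, chosen from these same data, lie between 1.05 and 1.92, where the median of all tested genes is 0.200.

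The low-count filter changed how this spread entered the test. With the filter, edgeR estimated the variability of each gene with a finite prior weight (9.45 prior degrees of freedom), and the 10 genes had quasi-dispersions of 4.88 to 15.9, against a median of 0.788 over all genes. Without it, 19186 genes were tested and the prior degrees of freedom were infinite, so each gene took the value of the trend. The 10 genes then had quasi-dispersions of 0.830 to 0.861 and SEs of 0.16 to 0.25, against 0.49 to 0.75 with the filter, while their fold changes kept to −1.07 to −0.69. In that fit 14 genes (0.073%) had an edgeR adjusted p under 0.05, and the 10 on the lower side (0.0521%) were these 10. The next gene on that side was Cd177, at −0.92 with an edgeR adjusted p of 0.0556, just outside the threshold of 0.05. S100a8 at −0.69 and Mmp9 at −1.07 were the 2 nearest inside it.

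Other genes listed as late neutrophil genes followed part of the pattern. They were listed with earlier results of these data known, and Cd177 among them came next after the 10 genes in the fit that chose those. They are therefore not independent of the choice. Of 38 other late neutrophil genes listed, 35 were tested; Ly6g was not found by symbol and is not analysed here. None passed the test (0 higher and 0 lower); 30 had negative fold changes and 5 positive, with a median of −0.28. In 17 of the 35, untreated pool 1 was the lowest pool, in 23 untreated pool 2 lay above it, and in 31 untreated pool 3 was the highest. By comparison, untreated pool 1 was the lowest for 1 of 17 primary granule genes and 1 of 12 erythroid genes. Untreated pool 2 lay above untreated pool 1 for 1 of the 17 and for 10 of the 12. Shares of these orders over all tested genes are not given here. A highest value in untreated pool 3 was not particular to late genes. It was found for 9 of 17 primary granule genes, 13 of 19 monocyte and dendritic genes and 0 of 14 stem cell genes. Of the 35 late neutrophil genes, 8 had an r above 0.9 with the mean profile of the 10 genes over the 6 pools. They were Fpr2, Olfm4, Cybb, Lrg1, Wfdc21, Cd177, Itgb2l and Pilra. Fpr2, Olfm4, Lrg1, Itgb2l and Pilra had low means, 1.16 to 2.33 CPM over the 6 pools. The ranking of all genes given further below left out genes under 5 CPM, so its share is no match for this count. Olfm4, which encodes olfactomedin 4 of secondary granules, had 55, 44 and 9 read pairs in RUX pools 4, 5 and 6 and 1, 97 and 102 in untreated pools 1, 2 and 3. Lrg1, a leucine-rich glycoprotein gene, had 106, 98 and 64 read pairs in RUX pools and 6, 141 and 161 in untreated pools. Cd177, which encodes a neutrophil surface protein, measured 6.30, 9.98 and 3.71 CPM in RUX pools 4, 5 and 6 and 1.71, 16.7 and 19.5 CPM in untreated pools 1, 2 and 3.

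The 3 most abundant genes of that list had their lowest value in RUX pool 6. Anxa1, which encodes annexin A1, measured 207, 188 and 125 CPM in RUX pools 4, 5 and 6 and 190, 153 and 288 CPM in untreated pools 1, 2 and 3. Cyba, a subunit gene of the phagocyte oxidase, measured 198, 156 and 108 CPM in RUX pools and 142, 116 and 216 CPM in untreated pools. Lyz2, encoding lysozyme, measured 318, 280 and 169 CPM in RUX pools and 242, 347 and 545 CPM in untreated pools; its log2 fold change was −0.57 ± 0.27 (edgeR, SE) and an adjusted p of 1.00. Itgam, the CD11b antigen that lineage panels commonly include, was at 14.8, 12.3 and 10.9 CPM in RUX pools and 13, 16.5 and 17.1 CPM in untreated pools.

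Primary granule genes had another order of pools. Of 18 listed, 17 were tested and none passed (0 higher and 0 lower), with 13 positive and 4 negative fold changes and a median of 0.14. In 14 of the 17, untreated pool 2 was the lowest pool, the same pool that stood first or next to first for all 10 late genes. Mpo, encoding myeloperoxidase, measured 6973, 7182 and 6035 CPM in RUX pools 4, 5 and 6 and 5487, 3630 and 9240 CPM in untreated pools 1, 2 and 3. Elane, encoding neutrophil elastase, measured 1949, 1473 and 1237 CPM in RUX pools and 894, 494 and 2429 CPM in untreated pools. Srgn, the granule proteoglycan gene, measured 1370, 998 and 784 CPM in RUX pools and 985, 783 and 1320 CPM in untreated pools. The summed CPM of the 10 late genes, divided by that of the 4 primary granule genes Mpo, Elane, Prtn3 and Ctsg, was 0.147, 0.0958 and 0.0456 in RUX pools 4, 5 and 6. In untreated pools 1, 2 and 3 it was 0.0232, 0.489 and 0.186, so untreated pools 1 and 2 were the extremes of this ratio and the RUX pools lay between them.

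**Figure D5:**
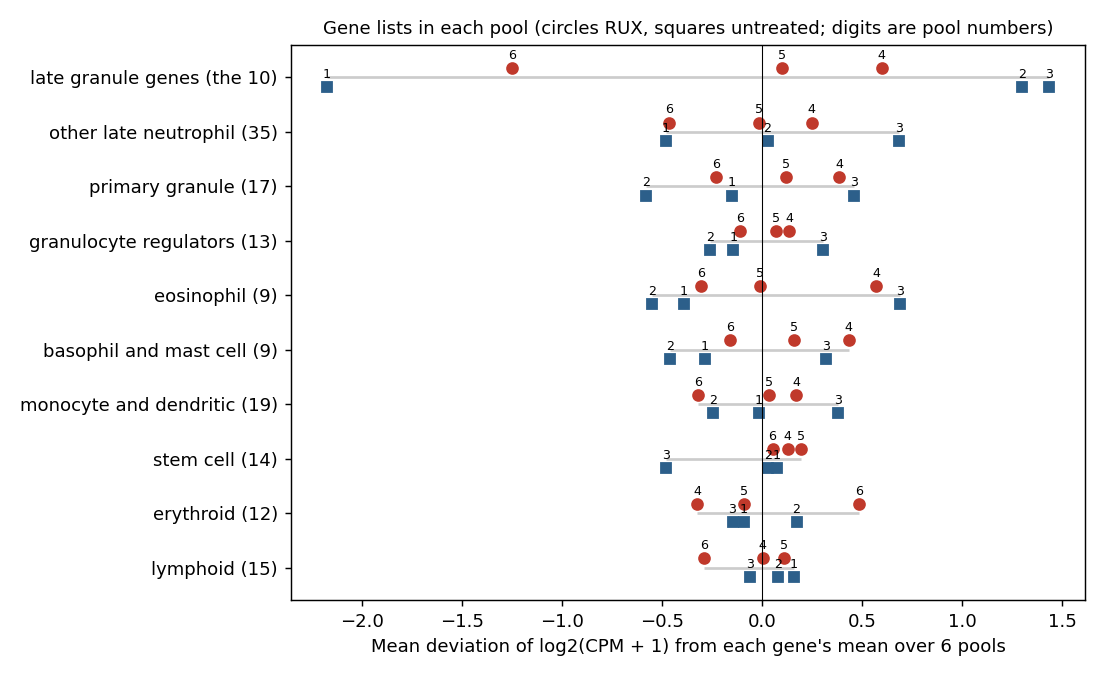
Level of each gene list per pool, as the deviation of log2(CPM + 1) from a gene's 6-pool mean, averaged over the list, for the 10 late granule genes and 9 other gene lists (number of tested genes in brackets), with RUX pools as circles above untreated pools as squares and pool numbers beside them. The late granule genes span −2.18 to 1.44, and untreated pool 2 lies at 1.30 for them and at −0.58 for primary granule genes.

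Regulators of granulocyte development shared the order of the late genes only in part. Of 13 tested, none passed, with 9 positive and 4 negative fold changes and a median of 0.02. The highest pool was untreated pool 3 for 8 of the 13. The lowest was untreated pool 2 for 4 and untreated pool 1 for 3. Their mean level had an r of 0.427 with that of the 10 genes over the 6 pools. Cebpe, the C/EBP factor needed for secondary granule genes in mice, measured 22.2, 17.9 and 13.4 CPM in RUX pools 4, 5 and 6 and 10.04, 7.42 and 30.8 CPM in untreated pools 1, 2 and 3, with its lowest value in untreated pool 2. Cebpa, the C/EBP factor of early granulocyte commitment, measured 38.5, 33.5 and 27.2 CPM in RUX pools and 28.8, 19.9 and 40.4 CPM in untreated pools. Gfi1, a repressor needed for neutrophil maturation, had log2 fold change 0.21 ± 0.28 (SE), Spi1, encoding PU.1, 0.01 ± 0.21 (SE), and Csf3r, the receptor of granulocyte colony-stimulating factor, 0.01 ± 0.17 (SE), each with an edgeR adjusted p of 1.00. Myb, Irf8 and Ikzf1, the most abundant of the list, were at −0.11, −0.43 and −0.09.

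Relatives and partners of the 10 proteins had median fold changes nearer to 0. Of 11 tested S100 genes and calprotectin receptor genes none passed, with a median log2 fold change of 0.01; Bsg, encoding the receptor basigin, was at 0.11, and S100a10 and S100a11 were at −0.22 and 0.24. S100a6 measured 22.5, 17.2 and 10.2 CPM in RUX pools 4, 5 and 6 and 12.9, 20.6 and 24.7 CPM in untreated pools 1, 2 and 3. Of 9 tested partners, inhibitors and receptors of granule proteins none passed, with a median of −0.11. Mmp14, a membrane-bound metalloproteinase gene, was at 0.01, the inhibitor gene Timp2 at −0.11 and Cd14 at −0.22. The mean level of these 9 had an r of 0.925 with that of the 10 genes over the 6 pools. It spanned only −0.14 to 0.08 in RUX pools and −0.14 to 0.09 in untreated pools. Of the 9, only 1 had an r above 0.9 by itself, Fpr2 (0.967), which ranged 15.5-fold over the pools. Fpr2 was also in the late neutrophil list, so the r of 0.925 does not describe the 9 as a set. For the mean level of the 11 S100 and receptor genes the r was 0.563.

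Markers of other cells gave these values beside the late granule genes. Kit measured 295, 412 and 416 CPM in RUX pools 4, 5 and 6 and 409, 471 and 196 CPM in untreated pools 1, 2 and 3, so it was lowest in a pool where the late genes were high and highest in untreated pool 2, where they were also high. The 9 tested eosinophil markers had mean deviations of −0.31 to 0.57 in RUX pools and −0.55 to 0.69 in untreated pools, with untreated pool 2 the lowest. Prg2 measured 207, 80.7 and 41.3 CPM in RUX pools and 40.1, 35.7 and 214 CPM in untreated pools. The 19 monocyte and dendritic markers spanned −0.32 to 0.17 in RUX pools and −0.25 to 0.38 in untreated pools, and the 14 stem cell markers 0.05 to 0.20 in RUX pools and −0.48 to 0.07 in untreated pools. The ribosomal RNA precursor Rn45s took 0.251 to 1.04% of the counts in RUX pools and 0.193 to 0.446% in untreated pools. Their part in the pattern of the late granule genes was not tested.

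Over all genes, 9521 that were no members, had a mean of at least 5 CPM and carried a named symbol were ranked by Pearson's r of log2(CPM + 1) with the mean profile of the 10 genes over the 6 pools. An r above 0.9 was reached by 34 of them (0.357%). Over 6 pools such values can also arise by chance, and how often was not tested. The 10 nearest were Mdfic, Csnk1e, Mettl9, Wfdc21, Ifitm6, Zfp710, Kif21b, Gadd45g, Cd177 and Igtp, with r from 0.950 to 0.998. Most followed the order of the pools at a far smaller amplitude. Mdfic measured 5.70, 5.17 and 4.09 CPM in RUX pools 4, 5 and 6 and 3.61, 6.32 and 6.62 CPM in untreated pools 1, 2 and 3, a range of 1.84-fold. Csnk1e, a casein kinase gene, had a range of 1.37-fold and Mettl9 one of 1.22-fold. Wfdc21, Cd177 and Ifitm6 ranged by 9.92-fold, 11.4-fold and 5.76-fold. Wfdc21 measured 25.5, 12.4 and 6.66 CPM in RUX pools and 3.11, 22.3 and 30.8 CPM in untreated pools.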

How the data were processed

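RNA of sorted Lin-CD117+ cells was turned into libraries with Takara's SMART-Seq mRNA LP kit, per the labels' protocols. The aligner was STAR and the genome mm10, per the submitters' processing notes. The authors deposited raw counts (read pairs per gene) from featureCounts 2.0.3 over exons, per the file headers, which also give each gene's exon length. No strand option and no option for multi-mapped reads is recorded there, so reads of overlapping genes could not be told apart by strand and genes with near-identical copies are uncertain. Columns were matched to pools by library name. Pools came from different mice, and p-values rest on the spread from pool to pool. No pair of libraries was a duplicate (chi-square per degree of freedom at least 38.2 over 15 pairs). Pool totals were 27354768 to 48747137, and a floor of 3 counts was 0.0615 to 0.110 CPM.

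edgeR 4.0.16 in R 4.3.3 kept 13411 genes (filterByExpr), at least 99.96% of the counts of each pool, scaled them by TMM (factors 0.938 to 1.03) and tested treatment, two-sided, by the quasi-likelihood test with Benjamini-Hochberg adjustment at 0.05. Each SE is the fold change divided by the square root of F. The script was tested on simulated data. Alternatives were DESeq2 1.42.0, limma-voom 3.58.1, other scalings, filters, robust fitting, other pseudocounts and pools left out.

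The 10 genes and the gene lists were chosen with earlier results of these data known. Besides the 10, the rule named the 3 most abundant tested genes of each list, of which those that bear on the results are given here, and Kit, Itgam, Cebpe, Cebpa, Csf3r, Gfi1, Spi1 and the 10 genes nearest in profile; others are named after their values were seen. Of the lists not described further, erythroid, lymphoid, and basophil and mast cell markers had median log2 fold changes of 0.09, −0.17 and 0.14, and sort antigens 0.06.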

Additional observations from a re-analysis of the deposited data

How the results depend on the processing

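In 14 alternative settings, 0 of the 10 fold changes were above 0. Without the low-count filter the called genes were 14 over all genes, 10 of the late granule genes and 1 gene of the other lists (Prss34); in each of the other 13 settings all 3 counts were 0 in edgeR, DESeq2 or limma-voom, with unadjusted p under 0.05 for 176 to 666 genes. That setting differs by its infinite prior degrees of freedom, which the quasi-dispersions given in the report show. The edgeR adjusted p of the 10 genes in it was 0.000871 to 0.0385. With robust fitting the 10 genes had quasi-dispersions of 11.9 to 48.4 and SEs of 0.77 to 1.31. With 1 pool left out the median log2 fold change of the 10 genes was −1.41 to −0.47. Levels per pool kept their order with pseudocounts of 0.1 or 5 CPM, with CPM of the whole library and with DESeq2 size factors. Untreated pool 1 then lay at −2.34 to −1.83 and untreated pool 3 at 1.26 to 1.50. No paired analysis was possible because the groups share no pool numbers.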

Other observations

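Chil1, a chitinase-like relative of Chil3 that was in none of the lists and was named after its values were seen, ran with the late granule genes. It had 114, 201 and 51 read pairs in RUX pools 4, 5 and 6 and 10, 295 and 248 in untreated pools 1, 2 and 3. Fpr1, a formyl peptide receptor gene of mature neutrophils, was also lowest in untreated pool 1 and highest in untreated pool 3, at low counts. It had 47, 21 and 16 read pairs in RUX pools and 1, 40 and 105 in untreated pools. Prss34, a basophil protease gene, instead measured 19.6, 16.3 and 11.8 CPM in RUX pools and 1.25, 3.89 and 15.8 CPM in untreated pools, so its low pools were untreated pools 1 and 2.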
